A study of Homo sapiens with 40 samples.

Results

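The genes described here are the human DNA topoisomerases TOP1, TOP1MT, TOP2A, TOP2B, TOP3A and TOP3B and the tyrosyl-DNA phosphodiesterases TDP1 and TDP2. They were chosen by name, though with earlier results of these data known. They are 8 of the 58395 genes in the count table and 8 of the 28922 genes tested, since every one of them passed the filter of at least 10 counts summed over all libraries. HEK293A, an adherent line derived from human embryonic kidney cells, was grown as wild type (WT) cells and as PARP1-KO cells, which are 1 clone made with CRISPR/Cas9 (one label of these samples calls the genotype a knockdown). The loss of PARP1 and other traits of that clone therefore cannot be told apart in any comparison of the genotypes. Cells of each genotype received no treatment, 0.1% DMSO, Tpc (topotecan) with 0.1% DMSO, 5 µM OL9-119 in 0.1% DMSO, or Tpc + OL9-119, for 5 to 5.5 h, and polyA RNA was sequenced from 4 libraries of each of the 10 groups, 40 in all. Tpc was given at 100 nM to WT cells and at 50 nM to PARP1-KO cells, so dose and genotype cannot be told apart wherever the responses to Tpc of the 2 genotypes are compared. The study asked how the loss of PARP1, a TOP1 poison and a TDP1 inhibitor change gene expression, and the enzymes below are the drugs' own targets and their closest relatives.

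Topoisomerases relax or untangle DNA by cutting it through a tyrosine that stays covalently bound to the DNA end until the cut is resealed. Type IB enzymes (nuclear TOP1 and mitochondrial TOP1MT) cut a single strand and bind its 3′ end, type IIA enzymes (TOP2A, which peaks in dividing cells, and TOP2B, which is also made in resting cells) pass a duplex through a cut in both strands, and type IA enzymes (TOP3A and TOP3B) pass single strands. Topotecan traps TOP1 on DNA, TDP1 cleaves the bond between the trapped TOP1 tyrosine and the 3′ end, and TDP2 cleaves the corresponding 5′ bond left by TOP2. PARP1 is a sensor of DNA breaks that takes part in the TDP1-dependent repair of trapped TOP1, and OL9-119, a usnic acid derivative, inhibits TDP1.

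The libraries held 3455043 to 20379777 counts, with a median of 10656829. Depth-scaled counts (CPM, with TMM factors) of PARP1, the targeted gene, were 737 to 887 in the 20 WT libraries and 30.4 to 46.6 in the 20 PARP1-KO libraries, and the ranges did not overlap. Of the 7 kidney-line markers, VIM, KRT8 and KRT18 were above 180 CPM in every library and PAX2 was at 0.0979 to 12.1 CPM, while of 5 markers of other cell types PTPRC, ALB and MYH6 stayed at 0 to 1.20 CPM, PECAM1 at 0 to 2.74 CPM and COL3A1 at 7.62 to 21.4 CPM. The number of genes expected at the depth of the smallest library was 15510 to 20619 in WT and 17970 to 21571 in PARP1-KO cells, and 8 WT libraries were under 17000 (untreated replicates 1 and 3, DMSO 2 and 3, Tpc 2, OL9-119 2, Tpc + OL9-119 1 and 2). Mitochondrial transcripts took 4.73% to 8.25% of the counts in WT and 3.73% to 4.97% in PARP1-KO cells. Both measures moved with the genotype. Their part in the genotype differences below was examined only for the number of genes, as a covariate and by leaving out those 8 WT libraries.

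On the scale of CPM per kb of canonical transcript, which allows levels of different genes to be compared, TOP2A was the most abundant of the 8 transcripts and TOP1 the next in all 10 groups, and neither overlapped its lower neighbour. In untreated WT cells the level of TOP2A was 216 ± 31.9 CPM per kb (SD, n = 4) and that of TOP1 was 96.0 ± 9.48. TOP2B (30.7 ± 3.28), TDP2 (24.8 ± 1.97) and TOP1MT (18.4 ± 2.66) followed, with the TOP2B and TDP2 ranges overlapping. TOP3B (10.2 ± 2.27), TOP3A (7.55 ± 2.65) and TDP1 (5.93 ± 2.53) were lowest, and none of these 3 was separated from its neighbour in that order. In untreated PARP1-KO cells TOP1MT (31.3 ± 2.54 CPM per kb) stood between TOP2B (32.3 ± 1.96) and TDP2 (29.4 ± 1.52) with overlapping ranges, TOP3A (14.7 ± 0.770) stood above TOP3B (12.8 ± 1.26), again overlapping, and TDP1 (7.69 ± 0.623) was lowest without overlap.

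**Figure D1:**
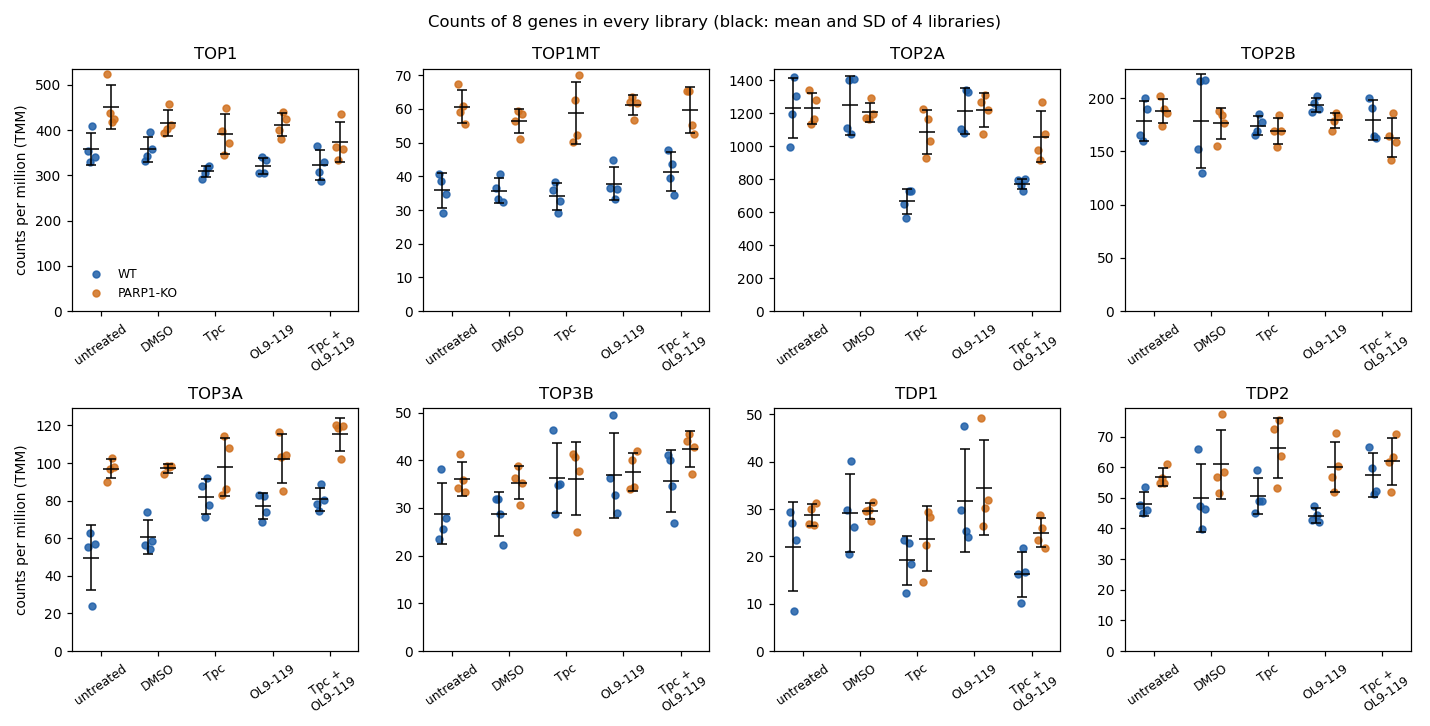
CPM of the 8 genes on linear axes in each of the 40 libraries, grouped by treatment and genotype, with each point 1 library and black bars for the mean and SD of 4. TOP2A dropped to 565 to 727 CPM in WT cells with Tpc while all PARP1-KO libraries were at 915 to 1340 CPM, and TOP1MT was at 29.04 to 47.9 CPM in WT and 50.0 to 69.9 CPM in PARP1-KO cells.

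Differences between conditions were tested with edgeR's quasi-likelihood test and called at an adjusted p under 0.01 over all genes tested. Between PARP1-KO and WT cells, 10 of 40 tests (8 genes in each of 5 treatments) passed, all higher in PARP1-KO cells, and 33 of the 40 log2 fold changes were above 0. These 40 values repeat the same 8 genes in 1 clone and are not independent. Over all genes tested the median log2 fold change was 0.04 to 0.19 in the 5 treatments. Over the genes that averaged 50 or more counts in a library it was -0.01 to 0.02. In each treatment 2 of the 8 genes passed. Of all genes tested, 11.7% passed in untreated cells (5.97% as higher), 12.4% in DMSO (6.67%), 8.52% in Tpc (4.17%), 9.77% in OL9-119 (4.94%) and 7.27% in the combination (3.56%). Among the 12161 genes that averaged 50 or more counts in a library, the corresponding shares were 26.1% (untreated), 27.3% (DMSO), 19% (Tpc), 22.1% (OL9-119) and 16% (both drugs). The 8 genes all belong to that better-counted class, so their 2 calls in each treatment are near its background. In WT cells 4 of 24 tests against untreated cells passed, 2 of 8 genes with Tpc (background 0.857%, and 2% among the better-counted genes), none with OL9-119 (1.28% and 2.99%) and 2 of 8 with Tpc + OL9-119 (4.07% and 9.43%). In PARP1-KO cells none of the 24 tests passed in edgeR or DESeq2, 2 had an unadjusted p under 0.05 (both TOP1), and the backgrounds were 0.0138% with Tpc, 0.00346% with OL9-119 and 0% with both. With DMSO alone none of the 8 genes passed in either genotype (0 of 16 tests by edgeR and by DESeq2, and 0 at an unadjusted p under 0.05), with a background of 0% in both. Of the 32 tests of the combination against each drug alone, 1 passed, TOP2A in WT cells (lower, also the only call of DESeq2), and 3 had an unadjusted p under 0.05; in PARP1-KO cells the backgrounds were 0%. Of the 24 tests of a difference in drug response between the genotypes none passed in edgeR, 5 had an unadjusted p under 0.05 and DESeq2 called 1, where 0.1% of genes passed for Tpc, 0.0657% for OL9-119 and 0.27% for the combination.

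TOP1 is the enzyme that topotecan traps, and its gene spans 95.7 kb and 21 exons (ENSG00000198900, chr20:41028822-41124487, plus strand, hg38). Its level was 354, 329.9, 409 and 340.1 CPM in the untreated WT libraries and 524, 438, 418 and 425 CPM in the untreated PARP1-KO libraries. With OL9-119 the WT libraries were at 305, 339.8, 305 and 334 CPM and the PARP1-KO libraries at 401, 382, 439 and 424 CPM. The genotypes did not overlap in either treatment, nor with Tpc, and they overlapped with DMSO and with Tpc + OL9-119. The PARP1-KO minus WT log2 fold change of TOP1 was 0.33 (SE 0.10, adjusted p = 0.0154) untreated, 0.22 (adjusted p = 0.128) in DMSO, 0.34 (adjusted p = 0.0174) under Tpc, 0.36 (SE 0.10, adjusted p = 0.00956) under OL9-119 and 0.21 (adjusted p = 0.185) under the combination. Only the OL9-119 difference passed, and it was lost in 19 of 40 fits that each left out 1 library, at log2 values of 0.33 to 0.38. With offsets for transcript length and GC content it was 0.20 (adjusted p = 0.212) and the DMSO difference turned to -0.06. With the number of expressed genes as a covariate, in contrast, TOP1 passed untreated (0.44, adjusted p = 0.000338), in DMSO (0.36, adjusted p = 0.00546), under Tpc (0.37, adjusted p = 0.00131) and under OL9-119 (0.41, adjusted p = 0.000409). DESeq2 called the untreated (adjusted p = 0.00494), Tpc (adjusted p = 0.00297) and OL9-119 (adjusted p = 0.0014) differences.

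No drug response of TOP1 passed. In WT cells Tpc gave a log2 fold change of -0.21 against untreated cells (95% interval -0.42 to -0.01, adjusted p = 0.303), OL9-119 one of -0.16 (adjusted p = 0.448) and Tpc + OL9-119 one of -0.15 (adjusted p = 0.411). In PARP1-KO cells the values were -0.21 (adjusted p = 0.837), -0.13 (adjusted p = 1) and -0.27 (95% interval -0.48 to -0.07, adjusted p = 1), and the difference between the genotypes in the response to Tpc was 0.01 (95% interval -0.28 to 0.30). TOP1 thus had 2 of its 3 PARP1-KO tests at an unadjusted p under 0.05 (0.0477 and 0.00965) without a call. Across the 40 libraries the 3 genes whose log2 CPM was most like that of TOP1 were THOC2 (Pearson r = 0.918), SLTM (0.878) and RBM25 (0.876), out of 12161 candidates, a description in which all points share library depth and composition. Within the 20 WT libraries the same correlations were lower, at 0.765, 0.756 and 0.798.

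TOP1MT, the mitochondrial topoisomerase that relaxes mitochondrial DNA, was the member that passed in every genotype comparison. Its gene (ENSG00000184428) spans 55.6 kb on chr8:143304384-143359979, minus strand. In untreated WT cells its level was 40.8, 38.7, 29.04 and 34.7 CPM, and in untreated PARP1-KO cells 67.3, 59.2, 60.8 and 55.5 CPM. With DMSO it was 36.6, 33.3, 40.6 and 32.4 CPM in WT and 56.5, 59.4, 51.2 and 58.3 CPM in PARP1-KO cells. Every PARP1-KO library was above every WT library in each of the 5 treatments. The log2 fold change was 0.76 (SE 0.14, adjusted p = 4.22e-05) untreated, 0.66 (adjusted p = 0.000356) in DMSO, 0.78 (adjusted p = 4.18e-05) under Tpc, 0.69 (adjusted p = 0.000197) under OL9-119 and 0.52 (adjusted p = 0.00764) under the combination. The first 4 of these calls were kept in all 40 fits that left out 1 library. The last was lost without Tpc + OL9-119 replicate 1 or 2 of the PARP1-KO cells (0.48 in both, with adjusted p of 0.0356 and 0.036) and without replicate 2, 3 or 4 of the WT cells (0.50, 0.55 and 0.45, adjusted p = 0.0269, 0.0135 and 0.0425). It was also lost with the prefix of the library name as a covariate (adjusted p = 0.0148), without the filter on counts (0.0248) and with only the compared libraries in the fit (0.0123), and the last of these also ended the DMSO call (adjusted p = 0.0129). No drug response of TOP1MT passed in either genotype, and the largest change against untreated cells was 0.21 (Tpc + OL9-119 in WT, adjusted p = 0.4).

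The genes that most resembled TOP1MT across the 40 libraries were ENSG00000262251 (r = 0.914), UIMC1 (0.911) and DDX39A (0.908). Within the 20 WT libraries the same correlations were 0.528, 0.658 and 0.365, so that much of the likeness lay in the step between the genotypes. The genes around TOP1MT leaned the same way: of 69 genes within 5 Mb that averaged 50 or more counts, 54 had a log2 fold change above 0 with DMSO and their median was 0.32. Of the 69, 12 passed as higher and 1 as lower, or 18.8% beside 27.3% of all genes of that depth. Of these neighbours 17 had a larger value than TOP1MT itself. Over all 12161 genes of that depth the median was 0.02. The neighbours' median was 0.24 untreated (50 of 69 above 0), 0.13 under Tpc (45), 0.13 under OL9-119 (44) and 0.44 under the combination (59), while TOP1MT itself was at 0.78 and 0.69 with Tpc and OL9-119. Neighbours of the other 7 genes had DMSO medians of -0.08 (TOP3B) to 0.26 (TOP2B, 12 of 16 above 0), so a positive median was not particular to TOP1MT, and those of TOP2B were above those of TOP1MT with Tpc (0.30) and OL9-119 (0.27). Genes of 1 region share a chromosome and are not independent replicates, and no test of the region was run.

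**Figure D2:**
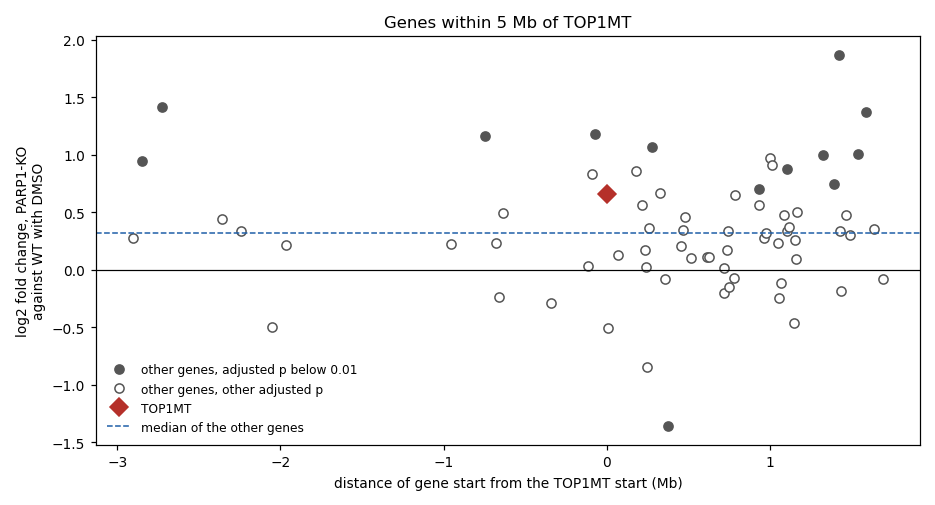
Log2 fold change of PARP1-KO against WT cells with DMSO for TOP1MT and its 69 neighbours within 5 Mb, by distance from the start of TOP1MT in Mb, with points filled where the adjusted p was under 0.01. TOP1MT stood at 0.66, the neighbours' median was 0.32 and 54 of 69 were above 0.

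**Figure D3:**
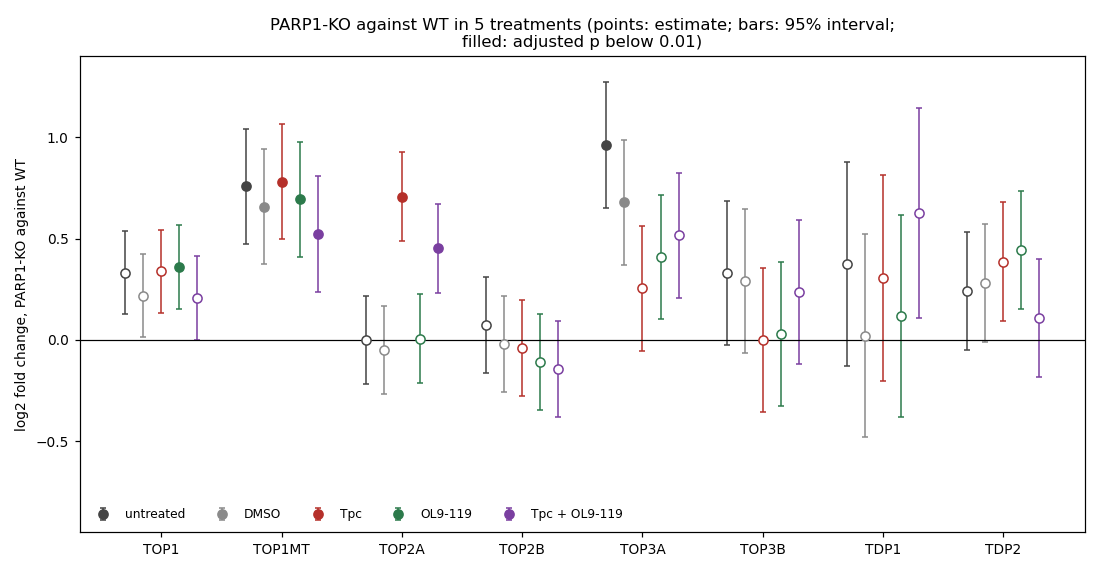
Log2 fold change of PARP1-KO against WT cells for the 8 genes in the 5 treatments, with 95% intervals and filled points where the adjusted p was under 0.01. TOP1MT was higher in all 5 treatments (0.52 to 0.78), TOP3A passed untreated (0.96) and with DMSO (0.68), and TOP2A passed only with Tpc (0.71) and Tpc + OL9-119 (0.45).

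TOP2A, the topoisomerase that untangles sister chromatids before division, fell with Tpc in WT cells. Its gene (ENSG00000131747) spans 29.4 kb and 35 exons on chr17:40388525-40417896, minus strand. In WT cells it was at 998, 1196, 1424 and 1308 CPM untreated and at 1112, 1402, 1078 and 1407 CPM with DMSO. With Tpc it was at 649, 565, 727 and 727 CPM, and with Tpc + OL9-119 at 793, 768, 732 and 802 CPM. All 8 libraries with Tpc were below all 12 WT libraries without it, since OL9-119 alone left TOP2A at 1104, 1081, 1339 and 1328 CPM. Tpc lowered TOP2A to 54.1% of the untreated level (log2 fold change -0.89, SE 0.11, adjusted p = 7.17e-08) and Tpc + OL9-119 to 62.8% (-0.67, adjusted p = 1.75e-05). Of all genes tested 0.304% and 2% passed as lower in these comparisons. Against DMSO, the vehicle that all drug groups contain, the changes were -0.91 (adjusted p = 3.06e-08, background 0.985%) and -0.69 (adjusted p = 8.84e-06, background 3.38%). Adding Tpc to OL9-119 gave a log2 fold change of TOP2A of -0.65 (adjusted p = 0.000157), where 0.408% of genes passed and 0.159% as lower. Adding OL9-119 to Tpc gave 0.21 (95% interval -0.01 to 0.43, adjusted p = 0.476, background 0.18%). OL9-119 alone gave -0.02 (95% interval -0.24 to 0.20). None of the 3 calls was lost in any of the 40 fits without 1 library. Within the 3 prefixes of the library names (L01, L02 and L03), the log2 ratio of the means with Tpc was -0.62, -1.08 and -0.91 and with Tpc + OL9-119 -0.33, -0.64 and -0.83. Each of these WT groups had 1 library in L01, 1 in L02 and 2 in L03.

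In PARP1-KO cells TOP2A was at 1339.9, 1138, 1167 and 1280.3 CPM untreated, at 1228, 931, 1164 and 1033 CPM with Tpc and at 979.7, 915, 1269 and 1074 CPM with Tpc + OL9-119. These groups overlapped. Their log2 fold changes were -0.18 (95% interval -0.40 to 0.04, adjusted p = 0.867) and -0.22 (95% interval -0.44 to 0.00, adjusted p = 1). Without Tpc no genotype difference of TOP2A passed: the PARP1-KO minus WT log2 fold change was between -0.22 and 0.22 (95% interval) untreated and between -0.27 and 0.17 with DMSO, although offsets for transcript length and GC content moved them to -0.34 (adjusted p = 0.00212) and -0.41 (adjusted p = 0.000155). With Tpc TOP2A was higher in PARP1-KO cells by 0.71 (SE 0.11, adjusted p = 2.26e-06) and with Tpc + OL9-119 by 0.45 (SE 0.11, adjusted p = 0.00248), the second lost without Tpc + OL9-119 replicate 3 of the PARP1-KO cells (0.35, adjusted p = 0.0335) or of the WT cells (0.43, adjusted p = 0.0117). The difference between the genotypes in the response to Tpc, PARP1-KO minus WT, was 0.71 (95% interval 0.40 to 1.02, adjusted p = 0.0231), which missed the threshold of 0.01 when 0.1% of all genes passed. Against DMSO the same difference was 0.76 (adjusted p = 0.00547, background 0.173%), and DESeq2 gave 0.73 (adjusted p = 0.00238). With Tpc + OL9-119 it was 0.45 (adjusted p = 0.222), and with OL9-119 alone 0.01 (95% interval -0.30 to 0.32). The dose of Tpc in PARP1-KO cells was 50 nM against 100 nM in WT cells, so these differences are between both genotype and dose.

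**Figure D4:**
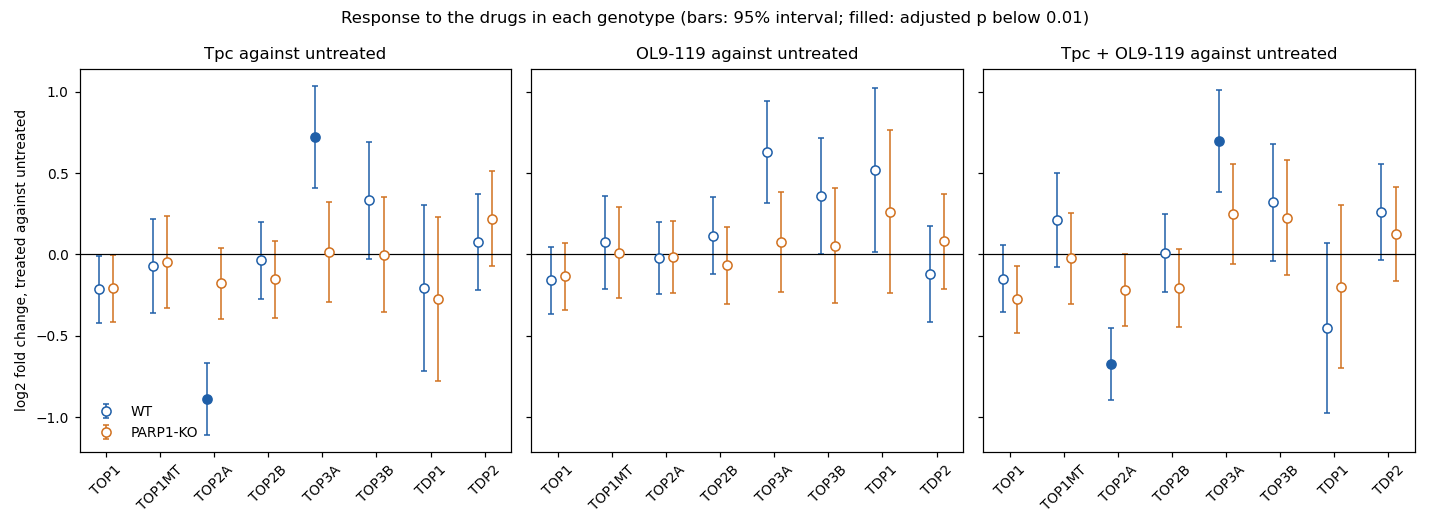
Log2 fold change against untreated cells of the same genotype for the 8 genes with Tpc, OL9-119 and Tpc + OL9-119, with 95% intervals and filled points where the adjusted p was under 0.01. In WT cells TOP2A was at -0.89 with Tpc and -0.67 with Tpc + OL9-119 and TOP3A at 0.72 and 0.69, and no point passed in PARP1-KO cells.

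The change shifted the balance of the topoisomerases. TOP2A made up 56.8% ± 3.30 (SD, n = 4) of the summed topoisomerase level per kb in untreated WT cells, 42.8% ± 2.47 with Tpc and 45.4% ± 1.78 in the combination. In PARP1-KO cells its share was 50.5% ± 1.60 untreated and 49.8% ± 2.699 with Tpc. The ratio of TOP2A to TOP2B per kb went from 7.03 ± 0.623 to 3.90 ± 0.334 with Tpc in WT cells and from 6.69 ± 0.308 to 6.56 ± 0.568 in PARP1-KO cells.

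TOP2A is itself transcribed late in the cell cycle, and a list of 21 other genes of the G2 and M phases moved the same way. In WT cells 13 of 21 passed as lower with Tpc and none as higher (median log2 fold change -0.83, beside 0 over all genes tested, of which 0.304% passed as lower). With Tpc + OL9-119 15 of 21 passed as lower and none as higher (median -0.85, background 2% as lower), and the 3 with the largest change were the mitotic kinesin KIF20A (-1.74, adjusted p = 1.32e-13) and the mitotic kinases PLK1 (-1.65, adjusted p = 1.88e-10) and AURKA (-1.48, adjusted p = 2.37e-11). In PARP1-KO cells none of the 21 passed with any drug in edgeR or DESeq2 (16 of 63 tests had an unadjusted p under 0.05), and the median was -0.21 with Tpc. The difference between the genotypes in the response to Tpc was above 0 for 21 of 21 genes (median 0.65), and 3 passed where 0.1% of all genes did, KIF20A (1.13), HMMR (1.05) and CDC20 (0.98), named here after their values were seen. In bulk RNA, fewer cells in G2 and M and less of these transcripts in each cell cannot be told apart. HMMR, a spindle-associated hyaluronan receptor, was the gene most like TOP2A across the 40 libraries (r = 0.929, and 0.929 within WT), followed by KIF20A (0.858) and SGO2 (0.832), a protector of centromeric cohesion. Between the genotypes, the list and TOP2A both had calls as higher in the groups given Tpc. With Tpc 4 of 21 G2/M genes passed as higher in PARP1-KO cells and none as lower (median 0.30, background 4.17% as higher), and with Tpc + OL9-119 9 passed as higher and 1 as lower (median 0.40, background 3.56%). Among the better-counted genes 19% and 16% passed in either direction in these comparisons, so the count with Tpc was near that background. With DMSO 10 of 21 passed as lower and none as higher (median -0.37, beside 0.19 over all genes tested, of which 5.75% passed as lower), led by CENPE (-1.48), CCNB1 (-1.20) and CCNA2 (-0.87). Of the better-counted genes 27.3% passed there in either direction. TOP2A was at -0.05 (SE 0.11, adjusted p = 0.806) without and at -0.41 with the offsets for transcript length and GC content.

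**Figure D5:**
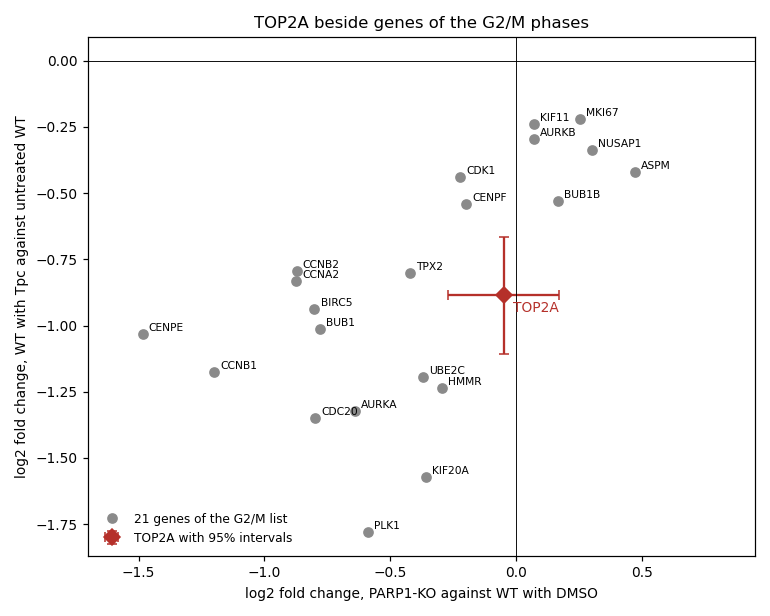
TOP2A, with 95% intervals, beside 21 G2/M genes, with each point 1 gene. The horizontal axis is the log2 fold change of PARP1-KO against WT cells with DMSO. The vertical axis is that of WT cells with Tpc against untreated WT cells. TOP2A stood at -0.05 and -0.89 on these axes, and the medians of the 21 genes were -0.37 and -0.83.

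Promoters of TOP2A and TOP2B are shown because TOP2A passed with Tpc and its paralog TOP2B did not. The windows run from 250 bases before to 50 bases after the start in RefSeq (GRCh38.p14), both on the minus strand, and 7 of the 8 genes had an entry (TOP1MT had none). Capitals mark matches, on either strand, to the box bound by the factor NF-Y, CCAAT, and to the core of the cell cycle genes homology region found in many late cell cycle promoters, TTTGAA. A match on the other strand shows as ATTGG for the first motif and as TTCAAA for the second. The TOP2A window is chr17:40417847-40418146, and the TOP2B window, at the distal of its starts, is chr3:25664858-25665157.
TOP2A: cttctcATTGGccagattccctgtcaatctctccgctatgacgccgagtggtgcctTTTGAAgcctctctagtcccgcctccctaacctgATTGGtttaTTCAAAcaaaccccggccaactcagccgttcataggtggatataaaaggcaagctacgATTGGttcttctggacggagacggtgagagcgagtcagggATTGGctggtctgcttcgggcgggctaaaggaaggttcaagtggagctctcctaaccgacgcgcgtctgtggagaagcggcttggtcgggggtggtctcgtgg
TOP2B: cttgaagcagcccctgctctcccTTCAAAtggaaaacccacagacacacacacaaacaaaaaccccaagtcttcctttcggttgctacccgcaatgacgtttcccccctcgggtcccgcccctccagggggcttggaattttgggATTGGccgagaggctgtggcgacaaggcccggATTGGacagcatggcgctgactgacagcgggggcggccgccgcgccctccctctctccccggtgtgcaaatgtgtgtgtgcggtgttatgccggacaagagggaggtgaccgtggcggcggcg
TOP2A held 4 matches to CCAAT, beginning at positions -244, -160, -93 and -53 from the start, and 2 to TTTGAA at -194 and -151. TOP2B held 2 to CCAAT at -105 and -73 and 1 to TTTGAA at -227, and the window at its other start held none. TDP1 held 1 TTTGAA at -30, and the windows of TOP1, TOP3A, TOP3B and TDP2 held neither. Of all 35116 promoter windows 0.991% held at least 4 CCAAT, 2.272% at least 2 TTTGAA and 5.903% at least 1 of each. Among the 19 windows of 17 of the G2/M genes, 11 (57.89%) held at least 1 of each. These matches are letters in a window and were not tested for binding.

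TOP2B, the isoform that also serves cells that do not divide, passed in none of its 20 tests by edgeR or DESeq2, and none had an unadjusted p under 0.05. Its gene (ENSG00000077097) spans 66.9 kb on chr3:25597978-25664909, minus strand. In untreated WT cells it was at 165, 160.2, 199.9 and 189 CPM and with Tpc at 165, 169, 186 and 178 CPM. These ranges overlapped, and the group means over all 10 groups ran only from 163 (PARP1-KO, Tpc + OL9-119) to 194 CPM (WT, OL9-119). Tpc in WT cells gave a log2 fold change of -0.04 (95% interval -0.27 to 0.20, adjusted p = 0.989), where TOP2A gave -0.89 (95% interval -1.11 to -0.66). With offsets for transcript length and GC content, however, TOP2B passed as lower in PARP1-KO cells with DMSO (-0.40, adjusted p = 0.00163) and with OL9-119 (-0.43, adjusted p = 0.000767), against -0.02 and -0.11 without them.

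TOP3A, which works with BLM and RMI1 on joined DNA strands and also decatenates mitochondrial DNA, passed as higher in PARP1-KO cells untreated and with DMSO. In WT cells it passed as higher with Tpc against untreated cells but not against DMSO. Its gene (ENSG00000177302) spans 43.6 kb on chr17:18271428-18315007, minus strand. In WT cells it was at 55.2, 63.0, 24.1 and 56.8 CPM untreated and at 56.3, 74.0, 54.2 and 58.4 CPM with DMSO. In PARP1-KO cells it was at 90.2, 97.1, 102.4 and 98.1 CPM untreated and at 93.9, 98.4, 97.7 and 98.7 CPM with DMSO. The genotypes did not overlap in these treatments, and untreated WT replicate 3, 1 of the 8 libraries with few genes, stood lowest. The PARP1-KO minus WT log2 fold change was 0.96 (SE 0.16, adjusted p = 2.96e-06) untreated and 0.68 (SE 0.15, adjusted p = 0.000716) with DMSO. With drugs it was 0.25 (adjusted p = 0.289) for Tpc, 0.41 (adjusted p = 0.0625) for OL9-119 and 0.52 (adjusted p = 0.0172) for Tpc + OL9-119. With the number of expressed genes as a covariate the DMSO difference was 0.43 (adjusted p = 0.0482), and without the 8 libraries with few genes the untreated difference was 0.69. Within L01, L02 and L03 the log2 ratio with DMSO was 0.77, 0.40 and 0.81, each from 1 or 2 libraries of each genotype.

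In WT cells TOP3A reached 87.6, 71.5, 91.9 and 77.8 CPM with Tpc and 78.5, 74.6, 89.0 and 80.5 CPM with Tpc + OL9-119, each without overlap with the untreated libraries. The log2 fold changes were 0.72 (SE 0.16, adjusted p = 0.00341) and 0.69 (SE 0.16, adjusted p = 0.00188), where 0.553% and 2.07% of genes passed as higher. OL9-119 alone gave 83.1, 68.6, 82.3 and 74.1 CPM and 0.63 (adjusted p = 0.011). Both calls were lost without untreated WT replicate 3 (0.50 and 0.46, with adjusted p of 0.0515 and 0.0307), and the Tpc call also without Tpc replicate 1 (0.69, adjusted p = 0.0187) or 3 (0.67, adjusted p = 0.0241). Against DMSO they were 0.44 (adjusted p = 0.141) and 0.41 (adjusted p = 0.0959), and all 8 libraries with few genes left out, 0.52 (adjusted p = 0.0232) and 0.49 (adjusted p = 0.0489). DMSO alone against untreated WT cells gave 0.29 (adjusted p = 0.508). Of the PARP1-KO responses, Tpc gave 0.02, OL9-119 gave 0.08 and the combination gave 0.25 (adjusted p = 1 in each), and the difference between the genotypes in the response to Tpc was -0.71 (95% interval -1.14 to -0.27, adjusted p = 0.407).

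TOP3B, which also acts on RNA together with TDRD3, passed in none of its 20 tests by edgeR or DESeq2, and 1 had an unadjusted p under 0.05 (OL9-119 in WT cells). Its gene (ENSG00000100038) spans 25.8 kb on chr22:21957025-21982813, minus strand, and its group means ran from 28.7 CPM (WT, DMSO) to 42.4 CPM (PARP1-KO, Tpc + OL9-119). In WT cells each drug group was somewhat above the untreated level of 28.8 ± 6.44 CPM, with means of 36.2, 36.9 and 35.7 CPM, and the ranges overlapped. The log2 fold changes were 0.33 (adjusted p = 0.358) with Tpc, 0.36 (adjusted p = 0.311) with OL9-119 and 0.32 (adjusted p = 0.293) with both. Without the 8 libraries with few genes they were 0.24, -0.01 and -0.10. The antisense gene PPM1F-AS1 covers 90.8% of the exonic bases of TOP3B and the strand setting of the counting is not given in the sources used here, so the TOP3B counts are uncertain. PPM1F-AS1 itself held 0 to 53 counts in the WT libraries, where TOP3B held 98 to 601. In the PARP1-KO libraries it held 0 to 15 counts and TOP3B 218 to 822. How reads were shared between the 2 genes was not tested. The pseudogene TOP3BP1 held at most 1 count in any library.

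TDP1, which OL9-119 inhibits, was the least abundant of the 8 genes per kb. Its gene (ENSG00000042088) spans 89.8 kb on chr14:89954939-90044764, plus strand. In WT cells it was at 29.3, 27.1, 8.40 and 23.5 CPM untreated, at 29.7, 20.6, 40.03 and 26.3 CPM with DMSO and at 23.4, 12.3, 22.9 and 18.3 CPM with Tpc. With OL9-119 it was at 29.8, 47.6, 25.4 and 24.1 CPM and with Tpc + OL9-119 at 16.3, 10.1, 21.7 and 16.7 CPM. These last groups did not overlap, and their difference had a log2 value of -0.97 (SE 0.26, adjusted p = 0.0496), the largest of the 8 genes in that comparison, which missed the threshold and was -0.45 (adjusted p = 0.713) without the 8 libraries with few genes, replicate 2 of OL9-119 and replicates 1 and 2 of the combination among them. No response of TDP1 against untreated cells passed: in WT cells the log2 fold change was -0.21 (adjusted p = 0.771) with Tpc, 0.52 (95% interval 0.02 to 1.02, adjusted p = 0.294) with OL9-119 and -0.45 (95% interval -0.97 to 0.07, adjusted p = 0.309) with both. Without untreated replicate 3, which stood at 8.40 CPM, these values were -0.47, 0.25 and -0.73 (adjusted p = 0.434, 0.721 and 0.0565), and without untreated replicate 1 the Tpc value was -0.03. Against DMSO they were -0.60 (adjusted p = 0.226), 0.12 (adjusted p = 0.9) and -0.85 (adjusted p = 0.0317), and none passed. In PARP1-KO cells the combination was at 23.5, 28.8, 25.9 and 21.7 CPM and OL9-119 at 49.2, 26.5, 30.3 and 31.9 CPM, and their difference was -0.46 (adjusted p = 1). PARP1-KO and WT cells differed in TDP1 by 0.37 (adjusted p = 0.31) untreated and by 0.02 (adjusted p = 1) with DMSO, with a 95% interval of -0.48 to 0.52, and by 0.63 (adjusted p = 0.103) with Tpc + OL9-119. The genes most like TDP1 were MIPOL1 (r = 0.721), EDA (0.709) and CLDN4 (0.709). Within the 20 WT libraries these correlations were 0.673, 0.685 and 0.695.

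TDP2, which frees 5′ ends from trapped TOP2, varied less. Its gene (ENSG00000111802) spans 16.95 kb and 7 exons on chr6:24649979-24666930, minus strand. In untreated WT cells it was at 47.5, 45.1, 53.5 and 46.0 CPM and in untreated PARP1-KO cells at 54.7, 56.5, 54.9 and 61.1 CPM. With OL9-119 it was at 42.9, 47.4, 44.5 and 42.0 CPM in WT and at 56.9, 51.9, 71.3 and 60.4 CPM in PARP1-KO cells. The genotypes did not overlap in these treatments and did in the other 3. The log2 fold change was 0.24 (adjusted p = 0.254) untreated, 0.39 (adjusted p = 0.0663) with Tpc and 0.44 (SE 0.15, adjusted p = 0.0284) with OL9-119, and none passed. The OL9-119 difference passed in 4 of 10 alternatives. These were DESeq2 (0.46, adjusted p = 0.00766), the number of expressed genes as a covariate (0.50, adjusted p = 0.00646), only the compared libraries (0.47, adjusted p = 0.00499) and without the 8 libraries with few genes (0.48, adjusted p = 0.00294). No fit without 1 library called it. The Tpc difference passed only without those 8 libraries (0.45, adjusted p = 0.00581). Against untreated WT cells the drug responses were 0.07 for Tpc, -0.12 for OL9-119 and 0.26 for both (adjusted p = 0.903, 0.754 and 0.297).

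The partners of these enzymes were counted in lists by role. With DMSO 12.4% of all genes passed between the genotypes, 27.3% of the better-counted ones did, and the median log2 fold change over all genes was 0.19. Of 23 genes that repair trapped TOP1, 4 passed as higher in PARP1-KO cells with DMSO and none as lower (median 0.09), a count near the background, among them ERCC4 (1.04, adjusted p = 1.44e-05), a subunit of the nuclease that trims 3′ ends in the absence of TDP1, the TOP1-binding ubiquitin and SUMO ligase TOPORS (0.76, adjusted p = 2.96e-05) and the SUMO ligase PIAS4 (0.73, adjusted p = 0.00143). The list's other call was PARP2 (0.51, adjusted p = 0.00964), a relative of PARP1, which is named after its value was seen. Of 9 genes of TOP2 repair and end joining, 3 passed as higher, the nuclease DCLRE1C (0.95), the SUMO ligase ZNF451 (0.87), which works with TDP2, and the ligase LIG4 (0.74), and 2 as lower, PAXX (-0.62) and XRCC6 (-0.36), which lie outside the rule for named genes. Of 8 partners of TOP3A and TOP3B, only BLM passed (0.68, adjusted p = 3.63e-05). Of 12 genes that maintain mitochondrial DNA, the setting of TOP1MT, 4 passed as higher and none as lower with DMSO (median 0.24): TFB2M (1.23), POLRMT (0.66) and TWNK (0.62), which serve mitochondrial transcription and replication, and MGME1 (0.43), a nuclease named after its value was seen. In the other treatments this list had fewer calls, 1 higher untreated, none with Tpc (4 at an unadjusted p under 0.05, and 1 as lower by DESeq2), 1 lower with OL9-119 and 2 higher and 1 lower with the combination, at medians of 0.03 to 0.14. The shares of all genes that passed there were also lower, in that order 11.7%, 8.52%, 9.77% and 7.27%. Among the better-counted genes they were 26.1%, 19%, 22.1% and 16%. The list's 4 of 12 calls with DMSO were near the 27.3% of better-counted genes.

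In WT cells with Tpc + OL9-119, where 4.07% of all genes and 9.43% of the better-counted ones passed, 2 of the 23 TOP1 repair genes passed as higher and none as lower, NBN (0.63, adjusted p = 0.00347) of the MRE11 complex and its partner in resection RBBP8 (0.61, adjusted p = 0.00222). Of the TOP2 and end joining genes XRCC4 fell (-0.91, adjusted p = 0.00771) and ZNF451 rose (0.58, adjusted p = 0.00356). BLM rose (0.59, adjusted p = 0.00133), as did the mitochondrial nuclease EXOG (0.84, adjusted p = 0.00966). Against DMSO, where 3.38% of genes passed, only NBN (0.73, adjusted p = 0.000691) and ZNF451 (0.67, adjusted p = 0.000864) of these 6 passed. RBBP8 was then at 0.41 (adjusted p = 0.055), XRCC4 at -0.87 (adjusted p = 0.0129), BLM at 0.44 (adjusted p = 0.0214) and EXOG at 0.04 (adjusted p = 1), and RNF4 (-0.52, adjusted p = 0.00932) and TWNK (0.65, adjusted p = 0.00129), named after their values were seen, passed instead. With Tpc alone none of the 52 tests over these 4 lists passed in edgeR, where 15 had an unadjusted p under 0.05 and DESeq2 called 2 as higher and 2 as lower. In PARP1-KO cells none of the 156 tests with the 3 drug treatments passed in edgeR or DESeq2, and 3 had an unadjusted p under 0.05, where nearly no gene of the table passed.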

How the data were processed

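The authors aligned reads of directional polyA libraries to hg38 with STAR 2.7.8 and deposited raw read counts per Ensembl gene for 40 libraries, with no normalization; FastQC 0.11.9 and Picard 2.26.6 also stand in the submitters' processing notes. From these counts, edgeR 4.0.16 in R 4.3.3 fitted all 40 libraries with 1 group per condition (TMM, quasi-likelihood test, 28922 genes with at least 10 counts in sum, Benjamini-Hochberg over all of them, threshold 0.01). DESeq2 1.42.0 was an alternative. CPM used TMM-scaled library sizes, and gene positions and canonical transcript lengths came from GENCODE 44. Drug groups were compared with untreated cells, as in the study's legends, and with DMSO as an alternative, so comparisons within a genotype share control libraries. The labels call replicates biological and the study's methods also call them technical, so p-values measure only the spread between libraries, which may be technical. Depth was 3455043 to 20379777 counts. The members, gene lists and tests were chosen with earlier results of these data known. The rule for naming genes besides the 8 and PARP1 took at most 3 called genes of each list with the largest change (PARP1-KO against WT with DMSO, Tpc + OL9-119 in WT) and the 3 genes most correlated with TOP1, TOP1MT, TOP2A and TDP1, and genes named outside it are marked where they appear. TOP1P1 and TOP1P2 were not analysed here. 1 marker of another cell type is not reported here.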

Additional observations from a re-analysis of the deposited data

Results flagged for a closer look

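The lowest of the 4 PARP1-KO libraries with Tpc + OL9-119 for TOP3A, replicate 3, was at 102.021 CPM, while the others lay between 119 and 120.5 CPM. The gap was 0.913 of the group's range, above Dixon's 95% critical value for 4 samples. It was the only one of the 80 gene-by-group sets flagged in this way, and chance flags about 1 in 20 sets.

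The TOP2A response to Tpc differed between the genotypes when DMSO was the comparator: the log2 response of PARP1-KO cells (50 nM) minus that of WT cells (100 nM) was 0.757 (SE 0.16, adjusted p = 0.00547, edgeR), from the interaction term itself. In the WT cells all 4 libraries with Tpc were below all 4 with DMSO, and in the PARP1-KO cells the groups overlapped.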

How the results depend on the processing

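The 10 calls between PARP1-KO and WT cells became 14 with DESeq2, 15 with length and GC offsets, 8 with the prefix of the library name as a covariate and 8 to 12 when each library was left out in turn. DESeq2 added TOP1 untreated and with Tpc, TDP2 with OL9-119 and TOP3A with Tpc + OL9-119, all as higher. The offsets ended the TOP1 call and added some as lower, TOP2A untreated (-0.34) and with DMSO (-0.41) and TOP2B with DMSO (-0.40) and OL9-119 (-0.43). A further threshold at a log2 change of 1 in size left 0 of them, 0 of the 4 calls of drugs in WT cells and 0 of the 1 call of a drug added to the other. The 4 WT drug calls became 2 with DMSO as comparator, 2 with only the compared libraries in the fit and 2 without the 8 libraries with few genes (chosen after seeing the data), in each case the TOP2A calls, and 2 to 5 with a library left out. The added-drug count of 1 became 2 at an adjusted p of 0.05 and 2 without the filter on counts (TDP1 in WT cells), and stayed at 1 to 1 with a library left out. The count of 0 for the difference between responses became 1 (TOP2A with Tpc) with DESeq2, with DMSO, at 0.05, without the filter, with a replicate block and without the 8 libraries, became 2 with length and GC offsets (TOP2A with Tpc and with Tpc + OL9-119), and was 0 to 1 with a library left out. The counts of 0 for DMSO and for the drugs in PARP1-KO cells stayed at 0 to 0 with a library left out and under the other alternatives run. None of the 15 calls, nor the 3 values near a call repeated with them, changed sign: of 258 repeats over these 18, 208 kept their side of the threshold, 34 lost and 16 gained a call. Of all 160 tests of the 8 genes, 46 took the opposite sign under at least 1 alternative, all of them not called, among them TOP1 between the genotypes with DMSO (0.22 to -0.06) and TOP2B untreated (0.07 to -0.32), both with length and GC offsets.

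The replicate block (the replicate number as a covariate) gave 10, 0, 5, 0, 1 and 1 calls in the 6 families. Same-numbered libraries of different groups correlated at 0.0534 on average in WT cells (-0.23 to 0.47) and at 0.0955 in PARP1-KO cells (-0.21 to 0.52). Differently numbered ones averaged -0.0054 and -0.0274. Same-numbered libraries were thus slightly more alike on average, with wide ranges, and the numbers were not taken to pair samples. For all genes, length and GC offsets moved PARP1-KO against WT with DMSO from 1930 higher and 1662 lower to 1615 and 2438 (median log2 fold change 0.19 to 0.09), and Tpc in WT cells from 160 and 88 to 234 and 275. DESeq2 called 331 higher and 230 lower for Tpc in WT cells, no filter 302 and 172, and only the compared libraries 34 and 27; for PARP1-KO against WT with DMSO the last gave 761 and 875. The causes were not tested. Depth limits TDP1 most, with 61 to 596 counts per library. Over the alternatives run for each, the adjusted p ran from 1.02e-05 to 0.0497 for the TOP2A difference between responses to Tpc, from 0.00021 to 0.219 and from 0.00019 to 0.0959 for TOP3A with Tpc and with Tpc + OL9-119 in WT cells, from 0.00096 to 0.0248 for TOP1MT between the genotypes with Tpc + OL9-119 and from 8.76e-07 to 0.0129 with DMSO, from 0.000409 to 0.212 for TOP1 between the genotypes with OL9-119, and from 3.79e-06 to 0.0482 for TOP3A between them with DMSO. For TOP2A between the genotypes it ran from 0.00212 to 1 untreated and from 0.000155 to 0.96 with DMSO, for TOP2B from 0.00163 to 1 with DMSO and from 0.000767 to 0.687 with OL9-119, and for TDP1 between the combination and OL9-119 in WT cells from 0.00105 to 0.713.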
